A study of Mus musculus with 16 samples.

Results

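The genes described here are the 9 MHC class II presentation genes of the deposited expression values: H2-Aa, H2-Ab1, H2-Eb1, H2-DMa, H2-DMb1, H2-DMb2, H2-Oa, Cd74 and Ciita. They were chosen by gene symbol, all 9 were found among the 18929 genes measured, and all 9 passed the filter on low values. RNA was sequenced from 16 tumors of B16F10, a mouse melanoma cell line, grown in female C57BL/6 mice that were 7 to 8 weeks old. The 4 groups were vehicle (corn oil with an IgG isotype control antibody), anti-PD1, α-KG (α-ketoglutarate) at 100 mg/kg and α-KG + anti-PD1 (below also the combination), each with 4 separate tumors out of 6 mice per group and with treatment by intraperitoneal injection for 9 to 11 days. Every tumor came from the same cell line, and the labels differ between groups in the treatment alone. The isotype antibody is named as IgG2a, and whether the α-KG group also received it is not given in the sources used here. Each value is an FPKM, a fragment count scaled to transcript length and to the fragments mapped in that tumor.

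MHC class II molecules carry peptides from proteins taken up by a cell to its surface, where CD4 T cells read them. They are made mainly by dendritic cells, macrophages and B cells, and interferon gamma can switch them on in many other cells through the coactivator CIITA. The α and β chains assemble with the invariant chain in the endoplasmic reticulum, cathepsins trim that chain in endosomes, and H2-DM then exchanges its last fragment for a peptide, a step that H2-DO restrains. CIITA binds no DNA itself and is held at class II promoters by RFX, CREB and NF-Y, which sit on the neighbouring X and Y boxes.

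Of the 9 genes, 7 lie in 1 stretch of chromosome 17 between positions 34092379 (the start of H2-Oa) and 34316674 (the end of H2-Eb1) in GRCm38.p6, which is the mm10 build named in the submitters' processing notes. Ciita lies on chromosome 16. RefSeq promoters, from 250 bases before to 50 bases after a transcript start, were matched for 6 members, with 7 starts in all because H2-DMa has 2. The stretches below are shown because 5 of the 7 hold the same pair of short sequences at nearly the same spacing. Whether AAC is part of an X box in each of them was not tested. Capitals mark AAC, which is part of the X box in other class II genes, and TGATTGG, which holds the Y box core ATTGG. Each is written 5′ to 3′ on the strand of its gene, and all lie before the transcript start.
H2-Aa (chr17:34287837-34287932, minus strand): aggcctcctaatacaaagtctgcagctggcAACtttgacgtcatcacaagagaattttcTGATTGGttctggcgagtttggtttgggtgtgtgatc
H2-Eb1 (chr17:34305748-34305842, plus strand): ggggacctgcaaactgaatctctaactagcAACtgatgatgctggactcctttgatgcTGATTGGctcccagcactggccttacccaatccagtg
H2-DMb1 (chr17:34153069-34153164, plus strand): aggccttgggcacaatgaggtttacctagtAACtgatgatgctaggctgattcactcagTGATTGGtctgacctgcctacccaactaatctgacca
H2-DMb2 (chr17:34145098-34145193, plus strand): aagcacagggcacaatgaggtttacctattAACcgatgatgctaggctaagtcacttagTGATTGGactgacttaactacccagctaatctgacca
H2-Oa (chr17:34092275-34092370, plus strand): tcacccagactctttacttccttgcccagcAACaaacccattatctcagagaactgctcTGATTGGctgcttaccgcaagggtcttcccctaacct

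In these 5 promoters 25 bases (H2-Eb1) or 26 bases (the other 4) separated AAC from TGATTGG, and TGATTGG began 45 to 92 bases before the transcript start. Searched on both strands, ATTGG was in 6 of the 7 member promoters and in 37.4% of all 32851 promoters. The fuller X box letters, AGNNAC followed directly by NGATG with N for any base, were in 3 of 7 and in 0.968% of all promoters. In H2-Eb1 and H2-DMb1 that match covered the capital AAC, and in H2-Oa it lay elsewhere in the promoter. TGATTGG and its pairing with AAC were chosen after these sequences had been read, so their counts only describe them: TGATTGG was in 5 of 7 and in 7.82% of all promoters, and AAC followed after 18 to 30 bases by TGATTGG in 5 of 7 and in 1.2%. TGATTGG includes ATTGG, so these searches overlap. The starts listed for H2-DMa and H2-DMb2 lie inside the full span of those genes.

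By group mean, all 9 class II genes were highest in the combination tumors. All 9 rose against vehicle, at a median log2 difference of 3.28, while 0 of 9 passed the test in anti-PD1 or in α-KG tumors against vehicle. The rise is read against a wide background, since 34.9% of the 12850 genes tested were also called higher in that comparison (limma, adjusted p under 0.05), with a median log2 difference over all genes of 0.15. In 7 of the 9 genes every combination tumor lay above every vehicle tumor, and this held for 28.2% of all genes tested. The exceptions were H2-DMb1 and H2-DMb2. Centering each tumor on its median gave 8 of 9, without H2-DMb2, and quantile normalization 7 of 9, without H2-DMb2 and H2-Oa, beside 17.1% and 17.4% of all genes called higher. In a whole tumor, more cells that express these genes and more RNA per cell cannot be told apart.

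**Figure D1:**
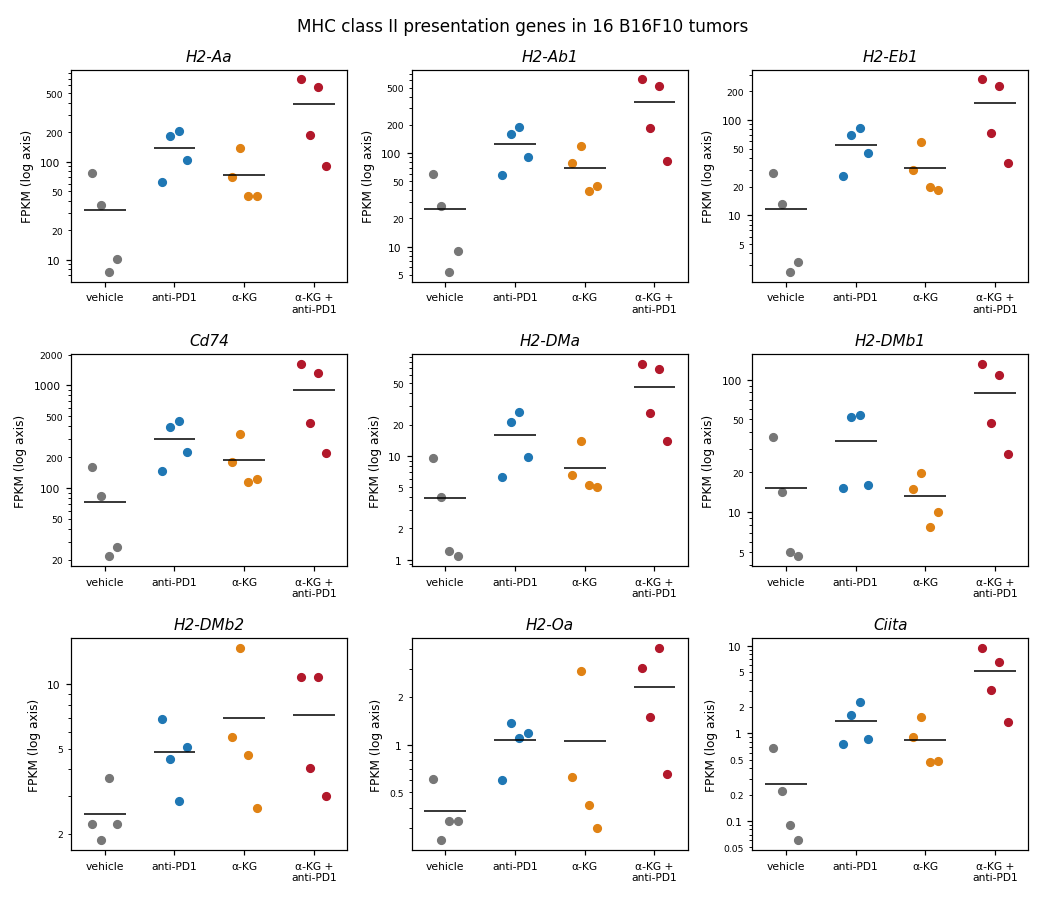
FPKM of the 9 class II genes on a log axis, with 1 point per tumor in label order from left to right, 4 tumors per group, and a line at each group's mean. The combination tumors lie highest for 7 genes against vehicle without overlap, vehicle tumors 1 and 2 lie above vehicle tumors 3 and 4 for most genes, and α-KG tumor 2 is the highest α-KG tumor for all 9.

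Depth was not given, so low values carry an unknown counting error. The FPKM values summed to 514180 to 654772 per tumor. Melanocyte markers (Mlana, Pmel, Tyr, Tyrp1, Dct, Sox10 and Mitf) summed to between 7845 and 10572 FPKM in all 16 tumors and were thus high in every tumor. Hemoglobin genes took 2.09% to 2.23% of the summed FPKM in the combination tumors and 4.23% to 22.2% in the others. With every tumor rescaled to the same sum without the hemoglobin genes, all 9 members were still called higher against vehicle, at a median log2 difference of 3.31.

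H2-Aa (Gene ID 14960, chr17:34282744-34287823) encodes the α chain of I-A, the main class II molecule of this strain. It was 76.2, 36.0, 7.53 and 10.3 FPKM in vehicle tumors 1 to 4 and 62.5, 181.6, 204.8 and 104.4 FPKM in the anti-PD1 tumors. In the α-KG tumors it was 69.4, 136.3, 45.3 and 44.8 FPKM, and in the combination tumors 688.1, 185.1, 571.2 and 90.7 FPKM. Vehicle tumors 1 and 2 were several times higher than vehicle tumors 3 and 4, and combination tumors 1 and 3 stood far above combination tumors 2 and 4. Even the lowest combination tumor exceeded the highest vehicle tumor, whereas the anti-PD1 and α-KG tumors overlapped vehicle tumor 1. The group means were 32.5 ± 31.8 for vehicle, 138.3 ± 66.3 for anti-PD1, 74.0 ± 43.1 for α-KG and 383.8 ± 290.5 FPKM for α-KG + anti-PD1 (SD, n = 4 each). The mean of α-KG + anti-PD1 was 11.8 times that of vehicle, and on the log2(FPKM + 1) scale the difference was 3.64 (SE 0.71, limma adjusted p = 0.00124).

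H2-Ab1 (Gene ID 14961, chr17:34263227-34269418) encodes the β chain of I-A, the partner of H2-Aa. It was 59.7, 27.5, 5.35 and 9.02 FPKM in the vehicle tumors and 58.2, 158.7, 187.9 and 90.8 FPKM in the anti-PD1 tumors. The α-KG tumors had 77.5, 117.4, 39.3 and 44.2 FPKM and the combination tumors 611.0, 185.9, 514.1 and 82.8 FPKM. Within each group the order of the tumors matched that of the α chain, except that α-KG tumors 3 and 4 changed places. Against vehicle the log2 fold change was 3.86 (SE 0.70, limma adjusted p = 0.000799), the largest among the 9 genes on this scale.

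H2-Eb1 (Gene ID 14969, chr17:34305867-34316674) encodes the β chain of the other class II molecule, I-E. Its values were 27.8, 13.2, 2.55 and 3.22 FPKM in the vehicle tumors and 25.9, 69.2, 82.0 and 44.7 FPKM in the anti-PD1 tumors. They were 29.8, 58.6, 20.1 and 18.3 FPKM in the α-KG tumors and 267.1, 74.0, 226.3 and 35.5 FPKM in the combination tumors. The α-KG + anti-PD1 and vehicle tumors did not overlap, and the log2 fold change was 3.68 (SE 0.70, limma adjusted p = 0.00102). H2-Ea, the α chain that would pair with it, is not made in C57BL/6 mice, and it was between 0 and 0.29 FPKM in 15 tumors and at 2.14 FPKM in vehicle tumor 4. H2-Ea did not pass the filter and was not tested.

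Cd74 (Gene ID 16149), the invariant chain that guides new class II molecules to endosomes, had the highest level of the 9 genes. It was 161.0, 84.2, 21.6 and 26.5 FPKM in the vehicle tumors and 145.6, 394.6, 450.4 and 222.7 FPKM in the anti-PD1 tumors. The α-KG tumors had 177.6, 332.6, 115.3 and 121.6 FPKM and the combination tumors 1636, 431.0, 1310 and 220.1 FPKM. The lowest combination tumor was above every vehicle tumor but below α-KG tumor 2 and below 3 of the 4 anti-PD1 tumors. The log2 fold change against vehicle was 3.64 (SE 0.68, limma adjusted p = 0.000937), and the mean level was 12.3 times that of vehicle.

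H2-DMa (Gene ID 14998, chr17:34119693-34139101) and the H2-DMb genes encode the α and β chains of H2-DM, the peptide editor. H2-DMa was 9.54, 4.04, 1.22 and 1.08 FPKM in the vehicle tumors and 6.22, 21.3, 26.6 and 9.79 FPKM in the anti-PD1 tumors. The α-KG tumors had 6.60, 14.0, 5.23 and 5.05 FPKM and the combination tumors 77.7, 26.0, 68.5 and 13.9 FPKM. It followed the pattern of the I-A chains, with no overlap between α-KG + anti-PD1 and vehicle, and its log2 fold change was 3.28 (SE 0.60, limma adjusted p = 0.00085).

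H2-DMb1 (Gene ID 14999, chr17:34153191-34160229) was the more abundant β chain gene. Its values were 37.1, 14.3, 4.98 and 4.66 FPKM in the vehicle tumors and 15.3, 52.1, 54.5 and 16.1 FPKM in the anti-PD1 tumors. In the α-KG tumors it was 15.0, 19.9, 7.74 and 9.97 FPKM, and in the combination tumors 132.0, 47.3, 108.3 and 27.4 FPKM. Vehicle tumor 1 was above combination tumor 4, so those groups overlapped, but every combination tumor was above every α-KG tumor. H2-DMb1 was the one member whose mean in the α-KG tumors, 13.2 ± 5.43 FPKM, lay below the vehicle mean of 15.3 ± 15.2 (SD, n = 4 each), a difference inside the spread of either group. Its log2 fold change in α-KG + anti-PD1 against vehicle was 2.49 (SE 0.63, limma adjusted p = 0.00533).

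H2-DMb2 (Gene ID 15000, chr17:34143229-34151553), the second β chain gene, did not follow the others. It was 2.21, 1.86, 3.63 and 2.21 FPKM in the vehicle tumors and 6.88, 4.48, 2.84 and 5.11 FPKM in the anti-PD1 tumors. The α-KG tumors had 5.68, 14.9, 4.69 and 2.65 FPKM and the combination tumors 10.8, 4.04, 10.8 and 3.00 FPKM. Its highest tumor of all 16 was α-KG tumor 2, its highest vehicle tumor was vehicle tumor 3 instead of vehicle tumor 1, and the group ranges overlapped throughout. The log2 fold change against vehicle was 1.09 (SE 0.41, limma adjusted p = 0.0423), and that call was lost when any one of 7 tumors was left out: vehicle tumor 1, 2 or 4, anti-PD1 tumor 4, α-KG tumor 1, or combination tumor 1 or 3. The β chain genes are close copies. In GENCODE M21, 22.7% of the 50-base stretches of H2-DMb1 transcripts also occur in H2-DMb2, and 21.2% of those of H2-DMb2 in H2-DMb1, so how reads were divided between them is uncertain.

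H2-Oa (Gene ID 15001, chr17:34092379-34095234) encodes the α chain of H2-DO, the inhibitor of H2-DM that is best known from B cells. Its values were low, at 0.61, 0.25, 0.33 and 0.33 FPKM in the vehicle tumors and 0.60, 1.37, 1.10 and 1.18 FPKM in the anti-PD1 tumors. The α-KG tumors had 0.63, 2.88, 0.42 and 0.30 FPKM and the combination tumors 3.03, 1.48, 4.06 and 0.65 FPKM. The lowest combination tumor exceeded the highest vehicle tumor by a margin that the unknown depth may not resolve. The log2 fold change was 1.14 (SE 0.34, limma adjusted p = 0.0137), and the call was lost without combination tumor 3.

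Ciita (Gene ID 12265, chr16:10480014-10531064), the coactivator, was also low and had the widest span of the 9 genes as a ratio of highest to lowest FPKM. It was 0.68, 0.22, 0.09 and 0.06 FPKM in the vehicle tumors and 0.76, 1.61, 2.27 and 0.85 FPKM in the anti-PD1 tumors. The α-KG tumors had 0.90, 1.52, 0.47 and 0.48 FPKM and the combination tumors 9.45, 3.10, 6.58 and 1.34 FPKM. All anti-PD1 and all combination tumors were above all vehicle tumors, for anti-PD1 by a margin that the unknown depth may not resolve. The mean in α-KG + anti-PD1 was 19.5 times that of vehicle. Because the values lie near the pseudocount of 1 FPKM, the fitted log2 fold change of 2.08 (SE 0.36, limma adjusted p = 0.000673) understates this ratio.

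Ordered by mean FPKM over the 16 tumors, the genes ran from Cd74 through H2-Aa, H2-Ab1, H2-Eb1, H2-DMb1, H2-DMa and H2-DMb2 to Ciita and H2-Oa. Cd74 was above H2-Aa in 16 of 16 tumors, by a median of 2.36 times in FPKM. H2-Ab1 was likewise above H2-Eb1 in 16 of 16, by a median of 2.28 times. H2-DMb1 was above H2-DMa in 16 of 16 (median 2.01 times) and H2-DMb2 above Ciita in 16 of 16 (median 5.77 times). The other 4 neighbouring pairs traded places: H2-Aa was above H2-Ab1 in 14 tumors, H2-Eb1 above H2-DMb1 in 12, H2-DMa above H2-DMb2 in 12 and Ciita above H2-Oa in 11. From the lowest to the highest tumor, Ciita spanned 157.5 times, H2-Ab1 114.2 times and H2-DMb2 7.99 times in FPKM. The span of Ciita rests on a lowest value of 0.06 FPKM, in vehicle tumor 4.

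In the anti-PD1 tumors the mean of each class II gene lay between those of the vehicle and combination tumors. Against vehicle 0 of 9 passed the limma test adjusted over all genes, beside a background of 0.467% of genes called higher. Unadjusted p was under 0.05 for 7 of the 9, all but H2-DMb2 and H2-Oa, and the median log2 fold change was 1.90. The share of all genes with an unadjusted p under 0.05 was not counted, so the 7 of 9 have no background here. For H2-Ab1 the difference was 2.64 with a 95% confidence interval of 1.15 to 4.12 (limma adjusted p = 0.0799), and for Cd74 it was 2.35 with an interval of 0.91 to 3.79 (limma adjusted p = 0.101). Ciita alone had separate groups, with every anti-PD1 tumor above every vehicle tumor, while 5.0% of all genes did so. The nearest tumors were at 0.76 FPKM (anti-PD1 tumor 1) and 0.68 FPKM (vehicle tumor 1), a margin that the unknown depth may not resolve. Vehicle tumor 1 bore on these tests: without it 5 genes passed, namely H2-Aa, H2-Ab1, H2-Eb1, H2-DMa and Cd74, beside 4.12% of all genes called higher in that fit.

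In the α-KG tumors, as in the anti-PD1 tumors, 0 of 9 class II genes passed against vehicle, beside 8.4% of all genes called higher. With limma 5 of 9 had an unadjusted p under 0.05, namely H2-Aa, H2-Ab1, H2-Eb1, H2-DMb2 and Cd74. For that count too the share of all genes was not counted. The median log2 fold change was 1.03. H2-Ab1 differed by 1.82 (95% confidence interval 0.33 to 3.31, limma adjusted p = 0.0922) and H2-DMb1 by 0.17 (95% confidence interval -1.16 to 1.51). None of the 9 had separate groups, against 10.1% of all genes. Without vehicle tumor 1, H2-Aa, H2-Ab1, H2-Eb1 and Cd74 passed, beside 10.1% of all genes called higher, and without α-KG tumor 4, H2-DMb2 passed, beside 7.87%. Both comparisons use the same 4 vehicle tumors. The means of the anti-PD1 tumors were above those of the α-KG tumors for 8 of the 9 genes, with H2-DMb2 the exception, and the ranges of these groups overlapped for all 9. That pair of groups was not tested.

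Set against α-KG alone, 7 of 9 genes were higher in the combination tumors, at a median log2 difference of 1.98, beside 31.8% of all genes. On the log2(FPKM + 1) scale H2-DMb1 differed most at 2.32 (SE 0.63, limma adjusted p = 0.00991), followed by H2-DMa at 2.25 (SE 0.60, limma adjusted p = 0.00944). By ratio of mean FPKM the order was Ciita at 6.07, H2-DMa at 6.03 and H2-DMb1 at 5.98 times α-KG. H2-DMb2 at 0.09 (95% confidence interval -0.79 to 0.97) and H2-Oa at 0.71 (95% confidence interval -0.01 to 1.43) did not pass, and the H2-DMb2 value turned to -0.22 with quantile normalization and to -0.18 with each tumor centered on its median. Groups were separate for H2-DMb1 only among the 9, against 29.7% of all genes. The calls for H2-DMa, H2-DMb1 and Ciita held with any single tumor left out, but those for H2-Aa, H2-Eb1 and Cd74 were lost without α-KG tumor 1, 3 or 4 or combination tumor 1 or 3, and that for H2-Ab1 without any of these except α-KG tumor 1. In these fits 3 or 4 of the 9 genes were called, beside 22.2% to 28.8% of all genes. Without α-KG tumor 2, or without combination tumor 4, H2-Oa passed as well.

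Between α-KG + anti-PD1 and anti-PD1, 1 of 9 passed, Ciita, with a log2 fold change of 1.19 (SE 0.36, limma adjusted p = 0.0404), beside 14.2% of all genes called higher. This call was lost when any one of 6 tumors was left out, namely vehicle tumor 2, anti-PD1 tumor 1 or 4, α-KG tumor 1, or combination tumor 1 or 3, and the limma adjusted p ranged from 0.00501 to 0.477 over all alternatives tried. The median log2 fold change of the 9 was also 1.19, and none had separate groups, against 13.6% of all genes. H2-Ab1 differed by 1.23 with a 95% confidence interval of -0.26 to 2.72, so a rise of several times and no change both lie inside it. H2-DMa was called in addition without combination tumor 4, the lowest tumor of that group for all 9 genes. The interaction, which is the effect of anti-PD1 in α-KG treated tumors minus its effect in tumors without α-KG, passed for 0 of 9 genes by limma, and 0 of 9 had an unadjusted p under 0.05. Its median over the 9 was -0.37 on the log2 scale, and 7.99% of all genes had an interaction called above 0. For H2-Ab1 its 95% confidence interval was -2.70 to 1.52.

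**Figure D2:**
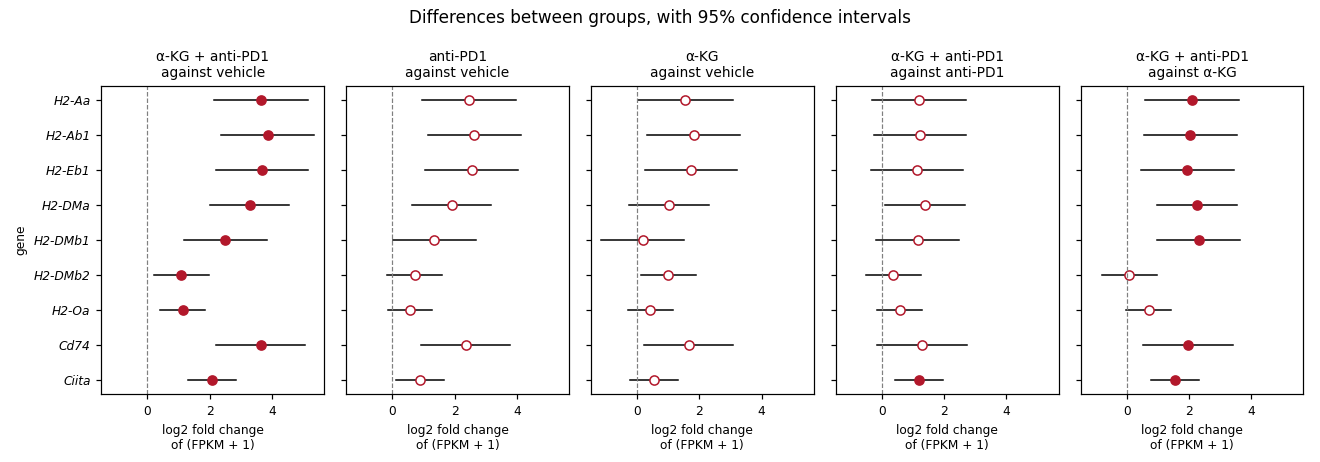
Fitted log2 fold changes of (FPKM + 1) for the 9 class II genes in 5 comparisons, from limma over all 16 tumors. Lines are 95% confidence intervals, and filled points passed at an adjusted p under 0.05 over all genes tested. All 9 are filled for α-KG + anti-PD1 against vehicle, 7 against α-KG and 1, Ciita, against anti-PD1.

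H2-Aa, H2-Ab1, H2-Eb1 and Cd74 varied together most closely, and H2-DMb2 least closely with the rest. Over the 28 pairs without H2-DMb2, Pearson's r of deviations from group means was 0.63 to 1.00, and over the 8 pairs with H2-DMb2 it was 0.26 to 0.81. The highest of the latter was with H2-Oa. Within a tumor, H2-Aa was 1.14 to 1.41 times H2-Ab1 in vehicle, 1.07 to 1.15 times in anti-PD1, 0.896 to 1.16 times in α-KG and 1.00 to 1.13 times in combination tumors. Cd74 was 2.69 to 4.03 times H2-Ab1 in vehicle and 2.29 to 2.93 times in the other 3 groups. The level of H2-DMa was 0.0851 to 0.228 times that of H2-Ab1 over the 16 tumors.

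Ciita was 0.0128 to 0.0167 times H2-Ab1 in the combination tumors, 0.00936 to 0.0131 times in anti-PD1 and 0.0109 to 0.0129 times in α-KG tumors, so that combination tumors 1, 2 and 4 were above all anti-PD1 and α-KG tumors. The vehicle tumors ran from 0.00665 to 0.0168 on values near 0. On the log2(FPKM + 1) scale this ratio differed by -0.03 between α-KG + anti-PD1 and anti-PD1 (exact permutation p = 0.886), and with a pseudocount of 0.1 by 0.38, so its direction depends on the pseudocount. Across 6 ratios and 5 comparisons, 30 exact two-sided permutation tests were made. The smallest p that 4 against 4 tumors allow is 0.0286, and after adjustment the smallest was 0.107, so no ratio differed past the threshold.

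**Figure D3:**
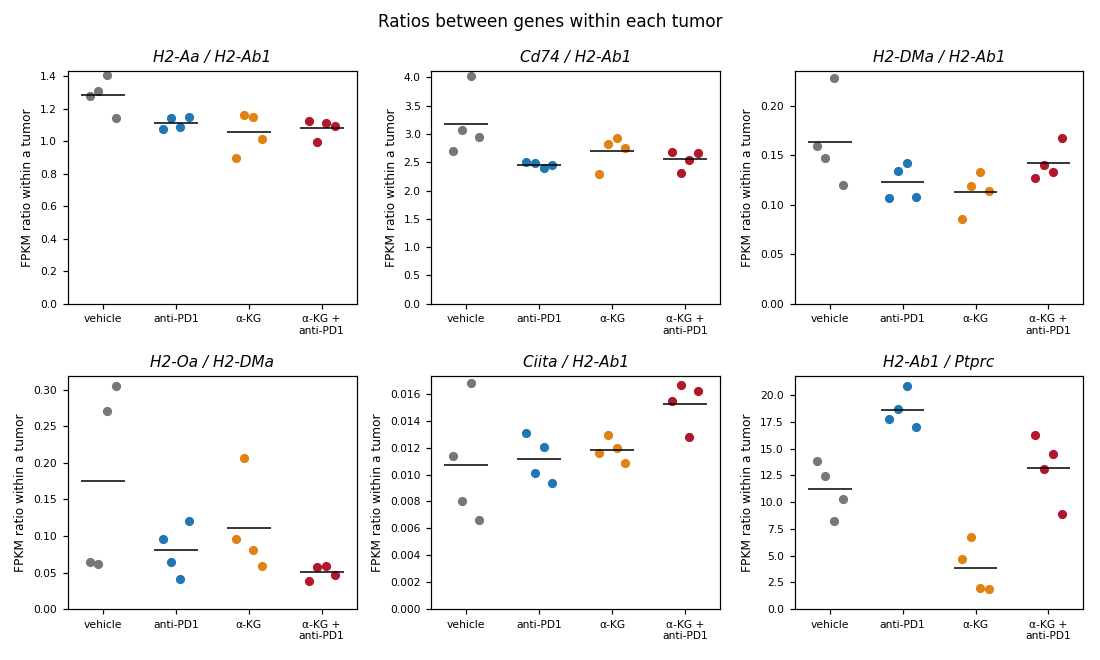
Ratios of FPKM between pairs of genes within each tumor, on axes that start at 0, with 1 point per tumor, 4 per group, and a line at the mean. The H2-Aa to H2-Ab1 ratio stays between 0.896 and 1.41 in all tumors, while H2-Ab1 per Ptprc is lowest in the α-KG tumors at 1.88 to 6.69.

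Ptprc encodes CD45, carried by nearly all leukocytes, and the class II level was set against it within each tumor. The FPKM ratio of H2-Ab1 to Ptprc was 13.9, 12.4, 8.23 and 10.3 in the vehicle tumors and 17.8, 18.7, 20.8 and 17.03 in the anti-PD1 tumors. It was 4.69, 6.69, 1.95 and 1.88 in the α-KG tumors and 16.2, 13.1, 14.5 and 8.86 in the combination tumors. Every α-KG tumor had less H2-Ab1 per Ptprc than any tumor of the other groups, and every anti-PD1 tumor had more. As log2(FPKM + 1) differences, α-KG + anti-PD1 exceeded α-KG by 1.95 (exact permutation p = 0.0286, adjusted p = 0.107) and anti-PD1 exceeded vehicle by 1.24 (exact permutation p = 0.0286, adjusted p = 0.107). α-KG differed from vehicle by -1.09 (exact permutation p = 0.143), where the pseudocount weighs on the low Ptprc of vehicle tumors 3 and 4, at 0.65 and 0.88 FPKM. Ptprc was the only leukocyte marker used for these ratios. Mean FPKM in α-KG tumors was 9.66 times that of vehicle for Ptprc. For the leukocyte markers Cd53 and Laptm5 it was 10.2 and 4.08 times. The order of the groups may therefore differ with another marker, which was not tested.

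The marker lists moved with the class II genes in some groups and not in others. Leukocyte markers (Ptprc, Cd53, Laptm5, Coro1a and Cd52) summed to 25.3 to 122.7 FPKM in vehicle tumors, while the anti-PD1 tumors had 126.7 to 262.8, the α-KG tumors 371.5 to 397.2 and the combination tumors 187.8 to 774.4 FPKM. All 5 were called higher than vehicle both in α-KG tumors, at a median log2 difference of 2.91, and in combination tumors, at 2.87. For the class II genes the corresponding counts were 0 of 9 and 9 of 9. In α-KG tumors their median log2 difference was 1.03, with an unadjusted limma p under 0.05 for 5 of 9. Over all genes tested, 8.4% were called higher than vehicle in α-KG and 34.9% in combination tumors, both at the adjusted threshold. These shares also stand beside the macrophage counts that follow. Macrophage markers (Adgre1, Csf1r, C1qa, C1qb, C1qc, Cd68, Fcgr1 and Mertk) summed to 97.2 to 484.4, 423.6 to 807.7, 428.2 to 697.8 and 674.2 to 1635 FPKM in the same order, and 8 of 8 and 4 of 8 were higher than vehicle in α-KG + anti-PD1 and α-KG tumors. Neutrophils make little class II, and their markers (S100a8, S100a9, Csf3r, Cxcr2 and Retnlg) summed to 1073 to 2858 FPKM in the α-KG tumors and to between 18.3 and 110.9 FPKM in the other 12.

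With the mean leukocyte marker level as a covariate, 0 of 9 class II genes and 0 of 12850 genes were called between α-KG + anti-PD1 and vehicle by limma, also at an unadjusted p under 0.05 for the 9, and the fitted difference of H2-Ab1 became -0.25. In the same fit 6 of 9 were called lower in α-KG than in vehicle, beside 1.06% of all genes, and 7 of 9 were called higher in α-KG + anti-PD1 than in α-KG, beside 35.7% of all genes. The leukocyte markers differ between groups along with the treatment, so the treatment and the leukocyte content cannot be told apart by this fit.

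**Figure D4:**
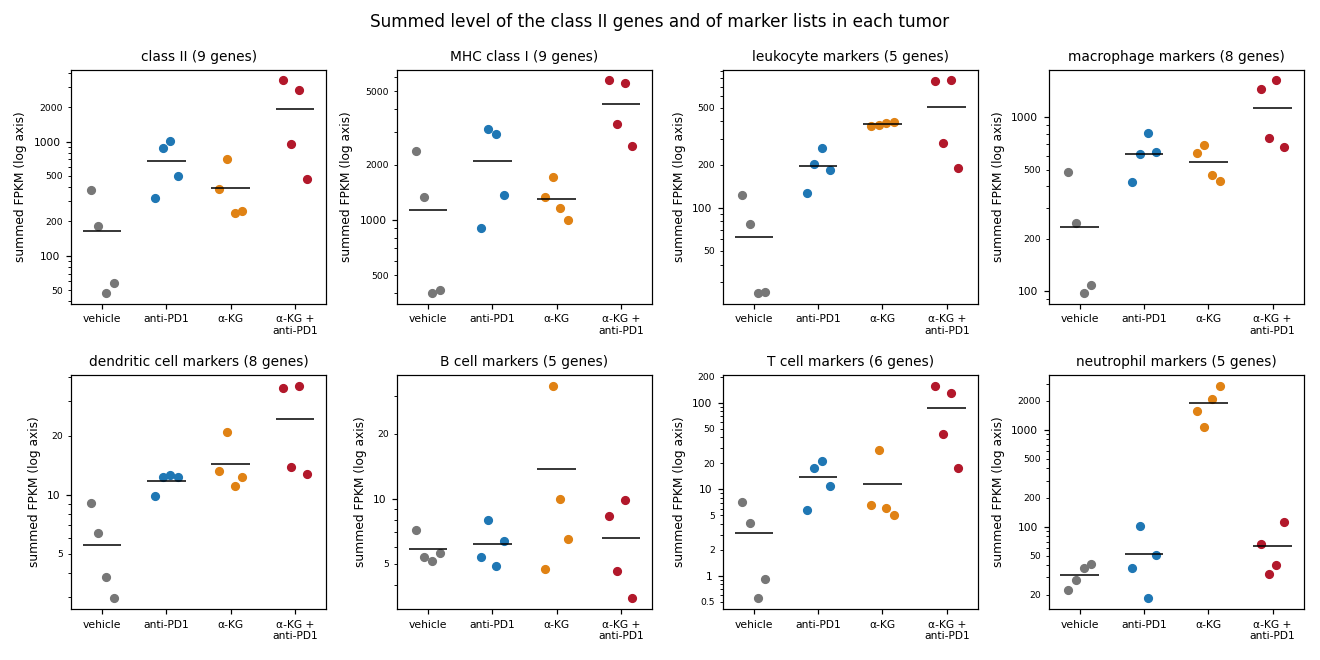
Summed FPKM of the class II genes and of 7 other gene lists in each tumor on log axes, with 1 point per tumor and a line at the mean. In the α-KG tumors the leukocyte markers reach 371.5 to 397.2 FPKM and the neutrophil markers 1073 to 2858 FPKM, while the class II sum is 238.5 to 698.1 FPKM, against 475.3 to 3435 FPKM in the combination tumors.

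Dendritic cell markers (Flt3, Zbtb46, Xcr1, Clec9a, Itgax, Cd209a, Ccr7 and Siglech) were low, with sums of 2.95 to 9.01 FPKM in vehicle tumors, while the anti-PD1 tumors had 9.87 to 12.7, the α-KG tumors 11.0 to 20.8 and the combination tumors 12.8 to 36.1 FPKM. All 7 that were tested rose in α-KG + anti-PD1 against vehicle, beside 34.9% of all genes called higher. T cell markers (Cd3d, Cd3e, Cd3g, Cd2, Cd5 and Cd6) summed to 0.55 to 7.08 FPKM in vehicle and 17.9 to 158.4 FPKM in combination tumors. All 6 rose, beside the same 34.9% of all genes. B cell markers (Ms4a1, Cd79a, Cd79b, Pax5 and Fcrla) stayed between 3.45 and 9.97 FPKM in 15 tumors and reached 33.5 FPKM in α-KG tumor 2. No marker of these lists was at 0 in all tumors of a group. Their part in the class II levels was not tested.

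α-KG tumor 2 held the highest value of its group for all 9 class II genes. In that tumor Cd79a, part of the B cell receptor, was 22.3 FPKM against 3.14 to 6.32 in the other 3 α-KG tumors, and Ms4a1 (CD20) was 2.39 against 0.16 to 0.39 FPKM. H2-Ob, the β chain partner of H2-Oa, was 1.83 against 0.31 to 0.71 FPKM there, its highest of the 16 tumors. Leaving out the highest tumor of a group must lower its mean. Without α-KG tumor 2 the α-KG mean went from 1.06 to 0.45 FPKM for H2-Oa and from 6.97 to 4.34 FPKM for H2-DMb2. For H2-Ab1 it went from 69.6 to 53.7 FPKM. The T cell markers of this tumor summed to 28.7 FPKM, against 5.03 to 6.59 in the other α-KG tumors. A link between these markers and the class II levels of this tumor was not tested.

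Interferon gamma and its receptor pathway lie upstream of Ciita. All 6 genes reported from this list (Ifng, Ifngr1, Ifngr2, Jak1, Jak2 and Irf1) rose in α-KG + anti-PD1 against vehicle, beside 34.9% of all genes. In anti-PD1 tumors 0 of 6 passed, beside 0.467% of all genes called higher. Unadjusted limma p was under 0.05 for 1 of 6, and the share of all genes at that threshold was not counted. In α-KG tumors 2 of 6 passed, Ifngr2 and Jak2, beside 8.4%. Ifng was 0.79, 0.26, 0 and 0.11 FPKM in the vehicle tumors and 0.26, 1.63, 2.42 and 0.72 FPKM in the anti-PD1 tumors. In the α-KG tumors it was 0.27, 0.77, 0.18 and 0.06 FPKM, and in the combination tumors 11.5, 4.37, 14.4 and 1.37 FPKM. Every combination tumor lay above every vehicle and α-KG tumor, and only combination tumor 4 lay within the anti-PD1 range. On the log2(FPKM + 1) scale Ifng rose by 2.48 against vehicle (limma adjusted p = 0.000946), by 1.74 against anti-PD1 (limma adjusted p = 0.026) and by 2.44 against α-KG (limma adjusted p = 0.00151). Irf1, a transcription factor that interferon gamma induces and that acts at the Ciita promoter, rose by 3.02 against vehicle (limma adjusted p = 0.000961).

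Within groups, the tumors with more Ifng had more of the class II genes. Over deviations from group means in all 16 tumors, Pearson's r of Ifng with Ciita was 0.95 and Spearman's rho 0.95 (permutation p = 0.00019 and 2e-05, adjusted p = 0.000248 and 2.83e-05), and r was 0.97 without the 2 tumors farthest from the median. With the other members r was 0.81 to 0.89, apart from H2-DMb2 at 0.48 (rho 0.34, permutation p = 0.156 and 0.272). Ciita followed 7 of the 8 other members with r of 0.81 to 0.90 and rho of 0.81 to 0.89, and H2-DMb2 with r of 0.57 (rho 0.44, permutation p = 0.0927 and 0.184). Of the 17 relations tested, 15 had an adjusted p under the threshold for both measures, and the smallest p that the permutations can give is 1e-05. The share of all genes that follow Ifng or Ciita as closely was not counted, so this count has no background. The relations also overlap, since H2-Aa, H2-Ab1, H2-Eb1 and Cd74 had r of 0.992 to 0.999 with each other. For H2-DMb2, r without the 2 outermost tumors was 0.42 with Ciita and 0.30 with Ifng. Each r is over whole tumors, whose cell makeup also varied, and the part of that makeup in r was not tested.

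The DNA-binding partners of CIITA were counted in the same way. Of 7 genes (Rfx5, Rfxap, Rfxank, Nfya, Nfyb, Nfyc and Creb1), 3 rose in α-KG + anti-PD1 against vehicle, Rfx5 by 0.74 (limma adjusted p = 0.00226), Rfxank by 0.45 (limma adjusted p = 0.00258) and Nfya by 0.48 (limma adjusted p = 0.01) on the log2 scale. The background was 34.9% of all genes called higher. These 3 also had separate groups, against 28.2% of all genes. The summed level of the 7 was 76.6 to 106.8 FPKM over all 16 tumors. The median log2 fold change of the 7 was 0.16, beside 0.15 over all genes.

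Of 13 other genes of the class II pathway, 11 were tested and 9 were higher in α-KG + anti-PD1 than in vehicle. Beside them, 34.9% of all genes were called higher. The median log2 fold change of the 11 was 0.66, against 3.28 for the 9 members. On the log2(FPKM + 1) scale Ctss, the cathepsin that trims the invariant chain, rose most, by 3.25 (limma adjusted p = 0.000509). Its mean went from 34.7 ± 28.7 to 295.0 ± 162.6 FPKM (SD, n = 4 each). The ubiquitin ligase gene Marchf1, whose product removes class II from the surface, rose by 1.44 (limma adjusted p = 0.00055). Cd83, whose product opposes that removal, rose by 2.07 (limma adjusted p = 0.000901). By ratio of mean FPKM Marchf1 rose 9.95 times and Ctss 8.51 times. The vehicle mean of Marchf1 was 0.26 FPKM, so the pseudocount of 1 FPKM weighs on its fitted change. H2-Ob at 0.55 (limma adjusted p = 0.0831) and the thiol reductase gene Ifi30 at 0.43 (limma adjusted p = 0.0945) did not pass. In α-KG tumors against vehicle 6 of the 11 passed, beside 8.4% of all genes called higher. Among the 6 were Ctss at 1.80 (limma adjusted p = 0.0306), Ctsb at 0.78 (limma adjusted p = 0.0267) and Marchf8 at 0.62 (limma adjusted p = 5.31e-05). In anti-PD1 tumors 1 of 11 passed, Ctsl at 0.98 (limma adjusted p = 0.0322), beside 0.467% of all genes.

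The class I presentation genes (H2-K1, H2-D1, B2m, Tap1, Tap2, Tapbp, Psmb8, Psmb9 and Nlrc5) were counted beside those of class II. Against vehicle 9 of 9 were higher in combination tumors, at a median log2 difference of 3.19, beside 34.9% of all genes. In anti-PD1 or in α-KG tumors 0 of 9 passed, beside 0.467% and 8.4% of all genes called higher. Unadjusted limma p was under 0.05 for 5 of 9 and 0 of 9, and the share of all genes at that threshold was not counted. In α-KG the median was 0.47 for class I and 1.03 for class II, and this difference was not tested. Against α-KG, 9 of 9 class I genes were higher in combination tumors, beside 31.8% of all genes called higher. Groups were separate for all 9 class I genes and for 1 of 9 class II genes, beside 29.7% of all genes. Nlrc5, the class I counterpart of Ciita, rose by 3.19 against vehicle (limma adjusted p = 0.00071) and by 2.06 against anti-PD1 (limma adjusted p = 0.0293).

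Several of the genes most like the class II chains are known from macrophages and other leukocytes. Over the 16 tumors, Pearson's r with the mean log2(FPKM + 1) of H2-Aa, H2-Ab1 and H2-Eb1 was highest for Psap (0.985), Ctss (0.984), Aif1 (0.982), Ly9 (0.982), Cd180 (0.982), C1qc (0.981), C1qa (0.981), Irf8 (0.980), C1qb (0.980) and Anpep (0.978). On deviations from group means, which leave out the differences between treatments, the first 10 were Ly6e (0.979), Tmem229b (0.977), Irf8 (0.976), Ctss (0.976), Cd48 (0.968), Il2rg (0.967), Pld4 (0.967), Psap (0.965), Gpr65 (0.964) and Itm2b (0.963). Ctss, Irf8 and Psap were in both lists. Ctss is also among the pathway genes above, and the complement genes C1qa, C1qb and C1qc are among the macrophage markers. All tested genes were ranked, the points share their libraries, and r is given as a description.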

How the data were processed

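Poly(A) RNA of 16 tumors was sequenced on a DNBSEQ instrument from libraries with a dUTP-marked second strand. The authors deposited FPKM values rounded to 2 decimals. The submitters' processing notes name HISAT, Bowtie2 and mm10 without their roles, and the program that computed FPKM, the annotation and any normalization between tumors are not given in the sources used here. Depth is unknown, since it is not given in the sources used here.

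Groups came from the sample labels. Values were changed to log2(FPKM + 1), which understates changes of genes near or below 1 FPKM. The 12850 genes that reached 0.5 FPKM in no fewer than 4 tumors were fitted with 1 mean per group over all 16 tumors (limma 3.58.1 in R 4.3.3, eBayes with a trend), with Benjamini-Hochberg adjustment over all of them and a threshold of 0.05. The fit was tested on simulated data. Ratios were compared by exact two-sided permutation over 70 splits, adjusted over 30 tests, and correlations of deviations from group means by 100000 permutations, adjusted over 17 (Python 3.11.15, scipy 1.17.1). The members and lists were chosen with earlier results of these data known. Some genes of the lists are not reported here and were left out of their sums and counts. Every member was named, other genes came from the lists or from the 10 highest correlations with the class II chains. Sequences and positions are from RefSeq (GRCm38.p6). Alternatives were pseudocount 0.1, no filter, 4 rescalings, fits to the compared groups only, no trend, the replicate number as a block, leukocyte markers as a covariate, and each tumor left out in turn.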

Additional observations from a re-analysis of the deposited data

Results flagged for a closer look

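In 108 sets of 4 tumors (each class II gene, marker list and ratio in each group), 3 had a single tumor whose gap to the nearest other, divided by the range of the group, exceeded Dixon's 95% critical value. Chance alone flags about 1 in 20 such sets. H2-Oa was 2.88 FPKM in α-KG tumor 2, above the other α-KG tumors at 0.30 to 0.63 FPKM. The T cell markers of the same tumor summed to 28.71 FPKM, above 5.03 to 6.59 FPKM in the other α-KG tumors. The dendritic cell markers of anti-PD1 tumor 1 summed to 9.87 FPKM, below 12.28 to 12.66 FPKM in the other anti-PD1 tumors, and that tumor was also the lowest of its group for 8 of the 9 class II genes.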

How the results depend on the processing

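Against vehicle, the α-KG + anti-PD1 count stayed at 7 to 9 of 9 under every alternative without the covariate, and at 7 to 9 with any tumor left out. The counts for anti-PD1 against vehicle were 0 to 5 and for α-KG against vehicle 0 to 4 with a tumor left out, 0 to 2 for α-KG + anti-PD1 against anti-PD1, 3 to 8 against α-KG and 0 to 0 for the interaction. Between α-KG + anti-PD1 and anti-PD1 the 1 call became 0 with pseudocount 0.1, no filter, quantile normalization, centering, a fit of the compared groups only or the covariate. Against α-KG the 7 became 3 with no filter. The replicate number as a block left the counts at 9, 0, 0, 1, 7 and 0. Over 24 same-numbered pairs the correlation of deviations was -0.64 to 0.41, with 9 above 0.1. Differently numbered pairs were not compared, so whether the numbers link tumors is not settled.

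Scaling moved the median log2 fold change of all genes in α-KG + anti-PD1 against vehicle from 0.15 to -0.11 (quantile), -0.16 (centering) or 0.34 (equal sums), and the genes called higher and lower from 4479 and 1348 to 2241 and 3994, 2197 and 4803, or 6294 and 250. The members' median lay 3.10 to 3.13 above that of all genes under these scalings. Over all alternatives but the covariate and the tumors left out, the share of genes called higher was 17.1% to 49.0% in that comparison, 0% to 1.81% for anti-PD1 and 5.68% to 9.16% for α-KG against vehicle, 0% to 32.7% for α-KG + anti-PD1 against anti-PD1, 13.7% to 53.1% against α-KG and 3.03% to 16.4% for the interaction. With a tumor left out these shares were, in the same order, 26.9% to 38.2%, 0% to 4.12%, 6.19% to 10.1%, 1.57% to 20.4%, 22.2% to 33.4% and 3.28% to 14.5%.

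With the leukocyte markers as a covariate, 0 members passed in α-KG + anti-PD1 against vehicle or anti-PD1, 6 passed as lower in α-KG against vehicle (1.06% of all genes), and 7 passed in the interaction (18.2% of all genes called above 0). Log2 fold changes that turned direction there were, for α-KG + anti-PD1 against vehicle, -0.58 (H2-Aa), -0.25 (H2-Ab1), -0.44 (H2-Eb1), -0.20 (H2-DMa), -1.07 (H2-DMb1), -0.0010 (H2-Oa) and -0.38 (Cd74). For anti-PD1 against vehicle they were -0.047 (H2-Aa), -0.16 (H2-DMa), -0.77 (H2-DMb1), -0.10 (H2-Oa), -0.026 (Cd74) and -0.19 (Ciita). For α-KG against vehicle they were -2.72 (H2-Aa), -2.34 (H2-Ab1), -2.43 (H2-Eb1), -2.48 (H2-DMa), -3.42 (H2-DMb1), -0.72 (H2-Oa), -2.40 (Cd74) and -1.31 (Ciita). For α-KG + anti-PD1 against anti-PD1 they were -0.53 (H2-Aa), -0.45 (H2-Ab1), -0.54 (H2-Eb1), -0.037 (H2-DMa), -0.30 (H2-DMb1) and -0.35 (Cd74). Interactions became 2.18 (H2-Aa), 1.90 (H2-Ab1), 1.89 (H2-Eb1) and 2.05 (Cd74).

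Other values that turned were all uncalled. H2-DMb2 in α-KG + anti-PD1 against α-KG was -0.22 (quantile) and -0.18 (centering), and the H2-Oa interaction -0.0031 (pseudocount 0.1), -0.020 (quantile) and -0.058 (centering). With a tumor left out, H2-DMb1 in α-KG against vehicle was -0.18 to 0.74, H2-DMb2 in α-KG + anti-PD1 against α-KG -0.21 to 0.49, and the interactions of H2-Aa -0.95 to 0.18, H2-DMa -0.13 to 0.80, H2-Oa -0.11 to 0.49 and Cd74 -0.90 to 0.16. The log2 ratio of Ciita to H2-Ab1 at pseudocount 0.1 was 0.38 against anti-PD1 and 0.21 against α-KG, and with a tumor left out -0.20 to 0.15 against anti-PD1, while that of H2-Aa to H2-Ab1 against α-KG was -0.032 to 0.091. Except where stated, the cause was not tested. The unknown depth limits genes such as H2-Oa, Ciita and Ifng, which lay near or below 1 FPKM in many tumors.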
